A study of Mus musculus with 4 samples.

Results

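Oxidative phosphorylation was examined through its subunit genes in primary mouse Leydig cells, the interstitial cells of the testis that make testosterone. The members were the protein-coding genes whose symbols begin as those of respiratory subunits do: Nduf for complex I, Sdha to Sdhd for complex II, Uqcr and Cyc1 for complex III, Cox4 to Cox8 for complex IV, Atp5 for complex V, and the mt- symbols of the mitochondrial genome. The rule found 100 genes among the 21897 protein-coding genes of the table, 45 of complex I, 4 of complex II, 10 of complex III, 21 of complex IV and 20 of complex V. Of these, 87 are encoded in the nucleus and 13 in mitochondria. A pair of the nuclear names, Cox7a2l and Atp5s, fit the rule but belong to a supercomplex factor and to a coupling factor that are not classed as core or accessory subunits.

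Total RNA was sequenced from 2 samples that received Trps1 siRNA and 2 that received Negative siRNA, all from cells of 6-month-old mice. Trps1 is a GATA-type zinc finger transcription factor, and the study's title places it upstream of Ccnd1 in Leydig cell proliferation. No strain, siRNA sequence, dose or time of collection is given in the labels. The labels do not say whether samples of a group came from separate animals or cultures, so p-values reflect only how far these samples spread, and that spread may be technical.

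In the inner mitochondrial membrane, complexes I and II pass electrons from NADH and succinate to coenzyme Q, complex III passes them on to cytochrome c, and complex IV hands them to oxygen. Complexes I, III and IV pump protons, and complex V, the ATP synthase, uses the returning protons to make ATP. Complexes I, III, IV and V are built from subunits of both genomes, while complex II is wholly nuclear. In Leydig cells the same membrane also holds the side-chain cleavage enzyme Cyp11a1, which takes electrons from NADPH through Fdxr and makes pregnenolone from cholesterol.

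The libraries held 17844125 and 21597187 counts with Trps1 siRNA, against 20116799 and 25852898 counts with Negative siRNA. Trps1 itself had 420 and 655 counts with Trps1 siRNA, against 765 and 1080 counts with Negative siRNA, a log2 fold change of -0.58 ± 0.10 (SE; edgeR quasi-likelihood adjusted p = 0.000351). Of the 10 Leydig cell markers 7 rose and none fell, beside 5.24% of all genes tested that rose. Their summed level was 6745 and 7245 CPM (counts scaled to the library's total) with Trps1 siRNA, against 4686 and 4964 CPM with Negative siRNA. Of the 18 macrophage markers, all of which passed the low-count filter, 9 fell and none rose, beside 6.00% of all genes tested that fell. Their sums were 2848 and 2264 CPM in Trps1 siRNA samples, against 3354 and 3305 CPM in Negative siRNA samples. Of 4 tested smooth muscle markers 2 fell, Myl9 and Acta2, which made up most of the list's sum. That sum was 58.9 and 62.7 CPM with Trps1 siRNA, against 94.0 and 95.0 CPM with Negative siRNA. Tagln and Cnn1 were too low to test. Of 4 tested Sertoli cell markers 1 rose, and of 3 tested germ cell markers 2 rose, Kit and Zbtb16. The other 9 germ cell markers were too low to test. None of 9 endothelial markers passed. In bulk RNA, fewer cells of a type and less RNA per cell cannot be told apart, and the part of cell makeup in the values of the respiratory genes was not tested.

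Most nuclear-encoded subunit genes sat slightly lower with Trps1 siRNA, few passed the test, and 1 complex IV isoform gene, Cox7a1, rose. A gene was tested if it passed edgeR's low-count filter, which kept 93 of the 100 members. It was called changed at an adjusted p under 0.05 across all 14701 genes tested. Of the 93 members, 7 fell, 1 rose and 85 did not pass. The 7 lower calls were 7.53% of the tested members, beside 6.00% of all genes tested called lower, and the 1 higher call was 1.08%, beside 5.24% of all genes called higher. In either direction 11.2% of all genes tested were called, and the lower share of the members was near the background.

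Below the threshold, the nuclear members leaned towards lower values. Of the 83 tested nuclear members 67 had a fold change below zero, 80.7%, beside 49.6% of all genes tested. Without Trps1 siRNA sample 2, 49 of the 83 did. Their median log2 fold change was -0.07, and that of all genes tested was 0.00. Both Trps1 siRNA samples lay below both Negative siRNA samples for 38 of the 93 tested members, 40.9%, beside 26.1% of all genes tested. All 38 were nuclear. The 10 tested mitochondrially encoded members had fold changes above zero, with a median of 0.06, and none passed the test. That median was -0.08 when Trps1 siRNA sample 1 was left out, with 3 of the 10 above zero, and 5 of the 10 lay above zero with offsets for GC content.

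**Figure D1:**
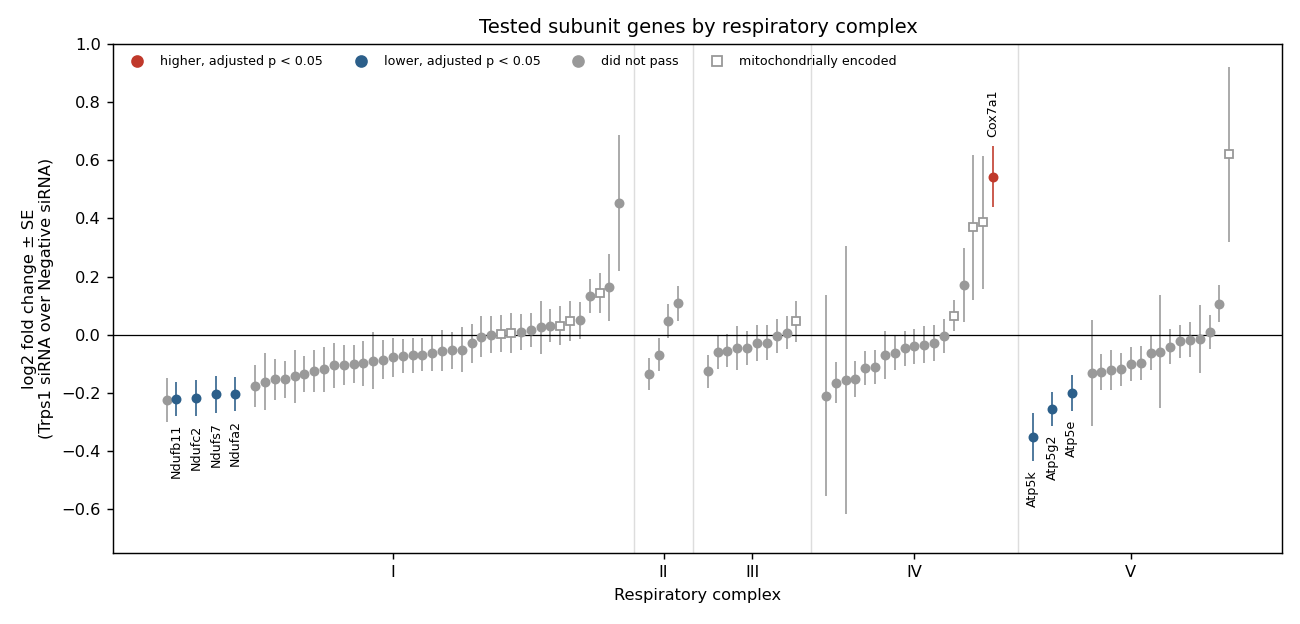
Log2 fold change with its SE (Trps1 siRNA over Negative siRNA, vertical axis) for the 93 tested members, sorted within complexes I to V along the horizontal axis; filled circles are nuclear and open squares mitochondrially encoded genes. The 7 members called lower lie in complexes I and V, and Cox7a1, called higher, lies in complex IV.

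The lower calls depended on single libraries. Without Trps1 siRNA sample 1 there were 11 lower calls among the members and without Trps1 siRNA sample 2 there were 0. Without Negative siRNA sample 1 there were 3, and without Negative siRNA sample 2 there were 0. DESeq2 called 3 members lower, namely Atp5k, Atp5g2 and Ndufb11. Ndufs7 and Atp5e also missed the threshold when library totals alone set the scale, in limma voom and with offsets for exon length, with adjusted p between 0.0525 and 0.0730 for Ndufs7 and between 0.0558 and 0.0643 for Atp5e. Ndufs7 missed it with offsets for GC content as well (edgeR quasi-likelihood adjusted p = 0.0711), and Atp5e without robust estimation (edgeR quasi-likelihood adjusted p = 0.0594). In the authors' deposited table of 780 genes 3 members appear: Atp5k at a log2 fold change of -0.35, Atp5g2 at -0.26 and Cox7a1 at 0.55.

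Complex I held 4 of the lower calls. Of its 43 tested genes 4 fell, 9.30%, beside 6.00% of all genes tested, and none rose. Of the 38 nuclear ones 29 lay below zero, with a median log2 fold change of -0.08. Ndufb11, an accessory subunit of the membrane arm (chrX:20615326-20617619, minus strand, GRCm38), had 132 and 122 CPM with Trps1 siRNA, against 149 and 148 CPM with Negative siRNA. The groups did not overlap, and the log2 fold change was -0.22 ± 0.06 (SE; edgeR quasi-likelihood adjusted p = 0.0118). Ndufb11 overlaps Rbm10 on the opposite strand, and the sources used here do not state whether the counting used strand.

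Ndufc2, another accessory subunit of the membrane arm (chr7:97400003-97407802, plus strand), had 80.3 and 78.6 CPM with Trps1 siRNA, against 93.1 and 91.6 CPM with Negative siRNA. Its replicates lay closer together than the groups, and its log2 fold change was -0.22 ± 0.06 (edgeR quasi-likelihood adjusted p = 0.0209). Ndufs7, which carries the iron-sulfur cluster next to the coenzyme Q site (chr10:80249121-80256794, plus strand), had 76.4 and 73.3 CPM with Trps1 siRNA, against 88.1 and 84.4 CPM with Negative siRNA. It was the core subunit that fell, at a log2 fold change of -0.21 ± 0.06 (edgeR quasi-likelihood adjusted p = 0.0364). Ndufa2, an accessory subunit of the matrix arm, had 92.5 and 89.3 CPM with Trps1 siRNA, against 104 and 105 CPM with Negative siRNA, at -0.20 ± 0.06 (edgeR quasi-likelihood adjusted p = 0.0244). Ndufa2 overlaps Tmco6 on the opposite strand.

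Both the catalytic core and the accessory shell of complex I held lower calls. Of the 7 nuclear core genes, which bind flavin or iron-sulfur clusters or line the coenzyme Q site, 1 fell, 14.3%. Their median log2 fold change was -0.06. Of the 31 accessory genes 3 fell, 9.68%, with a median of -0.10. Beside these shares, 6.00% of all genes tested were called lower. Ndufs6, a zinc-binding accessory subunit, just missed the threshold with 50.5 and 46.7 CPM in Trps1 siRNA samples, against 54.5 and 58.7 CPM in Negative siRNA samples (log2 fold change -0.22, edgeR quasi-likelihood adjusted p = 0.0578). Ndufb2 had the highest fold change of the complex, 0.45 ± 0.23, at 3.36 and 4.64 CPM with Trps1 siRNA, against 3.18 and 2.73 CPM with Negative siRNA, and did not pass.

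Complex II had no call among its 4 genes, and their fold changes lay on both sides of zero. The membrane anchors were below zero: Sdhc had 138 and 134 CPM with Trps1 siRNA, against 151 and 148 CPM with Negative siRNA (log2 fold change -0.14 ± 0.06, edgeR quasi-likelihood adjusted p = 0.126). The catalytic subunits were above zero: Sdhb, the iron-sulfur subunit, had 116 and 107 CPM with Trps1 siRNA, against 103 and 104 CPM with Negative siRNA (0.11 ± 0.06, edgeR quasi-likelihood adjusted p = 0.277). Per length, the most abundant of the 4 were Sdhd, the other anchor, and Sdha, the flavoprotein. TPM is the count made relative to the merged length of all annotated exons of a gene and scaled to the library's total. Sdhd stood at 321 and 329 TPM with Trps1 siRNA, against 330 and 347 TPM with Negative siRNA. Sdha stood at 318 and 303 TPM with Trps1 siRNA, against 305 and 293 TPM with Negative siRNA. Ranks per length depend on the length used. The annotated exons of Sdha cover 4126 bases and its longest protein-coding transcript 2900, while both lengths are 1231 for Sdhd.

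Complex III likewise had no call among 10 tested genes, 8 of them below zero, with a median log2 fold change of -0.04 and a range of -0.13 to 0.05. Uqcr11, a small accessory subunit and the gene with the lowest fold change, had 118 and 110 CPM with Trps1 siRNA, against 125 CPM in each Negative siRNA sample (edgeR quasi-likelihood adjusted p = 0.179). The redox subunits were close to zero: Cyc1, cytochrome c1, had a log2 fold change of -0.06 ± 0.06 and Uqcrfs1, the Rieske protein, one of -0.03 ± 0.06. Uqcrh, the hinge protein, stood at -0.06 ± 0.06. Of the nuclear genes, Uqcr10 was the most abundant per length, at 846 and 841 TPM with Trps1 siRNA, against 840 and 826 TPM with Negative siRNA.

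Complex IV held the call in the other direction. Cox7a1, the heart and muscle isoform of subunit 7A (chr7:30184144-30186078, plus strand), had 32.4 and 27.9 CPM with Trps1 siRNA, against 18.8 and 22.3 CPM with Negative siRNA. The groups did not overlap, and the level with Trps1 siRNA was 1.46-fold that with Negative siRNA (log2 fold change 0.54 ± 0.11, edgeR quasi-likelihood adjusted p = 0.000889). Cox7a1 was called higher under every alternative setting that was run. No other nuclear complex IV gene was called. With Cox7a1 included, 13 of the 15 tested nuclear genes lay below zero, and their median was -0.06. Cox7a2l, the supercomplex factor, had 94.5 and 87.3 CPM with Trps1 siRNA, against 98.7 and 103 CPM with Negative siRNA (edgeR quasi-likelihood adjusted p = 0.12). Cox6a1 was the most abundant nuclear member per length, at 3552 and 3350 TPM with Trps1 siRNA, against 3617 and 3541 TPM with Negative siRNA. The testis isoform genes Cox7b2 and Cox8c and the muscle isoform gene Cox8b were not tested, with Cox8b and Cox8c at 0 counts in all 4 libraries.

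Complex V had 3 genes that fell and none that rose among 18 tested. The 3 were 16.7% of its tested genes, beside 6.00% of all genes tested called lower. Of its 17 tested nuclear genes 15 lay below zero, with a median of -0.10. Atp5k, subunit e at the interface where ATP synthase dimers meet (chr5:108433244-108434448, minus strand), had the largest lower call of the members. It had 34.6 and 33.0 CPM with Trps1 siRNA, against 40.7 and 45.5 CPM with Negative siRNA. The level with Trps1 siRNA was 78.3% of that with Negative siRNA (log2 fold change -0.35 ± 0.08, edgeR quasi-likelihood adjusted p = 0.00551). Atp5e, the epsilon subunit of the central stalk (chr2:174461072-174464105, minus strand), had 108 and 97.9 CPM with Trps1 siRNA, against 114 and 123 CPM with Negative siRNA. Its log2 fold change was -0.20 ± 0.06 (edgeR quasi-likelihood adjusted p = 0.0358).

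Atp5e belongs to the catalytic F1 head, whose 5 genes all lay below zero with a median of -0.10, though only Atp5e passed. The Trps1 siRNA samples lay below the Negative siRNA samples in all 5. They did so in 26.1% of all genes tested and 45.8% of the tested nuclear members. The most abundant were Atp5b, the catalytic beta subunit, and Atp5a1, the alpha subunit. Atp5b had 958 and 940 TPM with Trps1 siRNA, against 991 and 978 TPM with Negative siRNA. Atp5a1 had 801 and 783 TPM with Trps1 siRNA, against 821 and 797 TPM with Negative siRNA. Atp5l and Atp5o, both with much of their sequence shared with other genes (84.8% and 50.3% of 50-base words), had low counts for this complex, at about 17 and 6 CPM. Atp5h shares 47.9% of its words and had 162 to 181 CPM, while Atp5s shares 0% and had 4.92 to 6.21 CPM. A link between shared sequence and level was not tested.

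**Figure D2:**
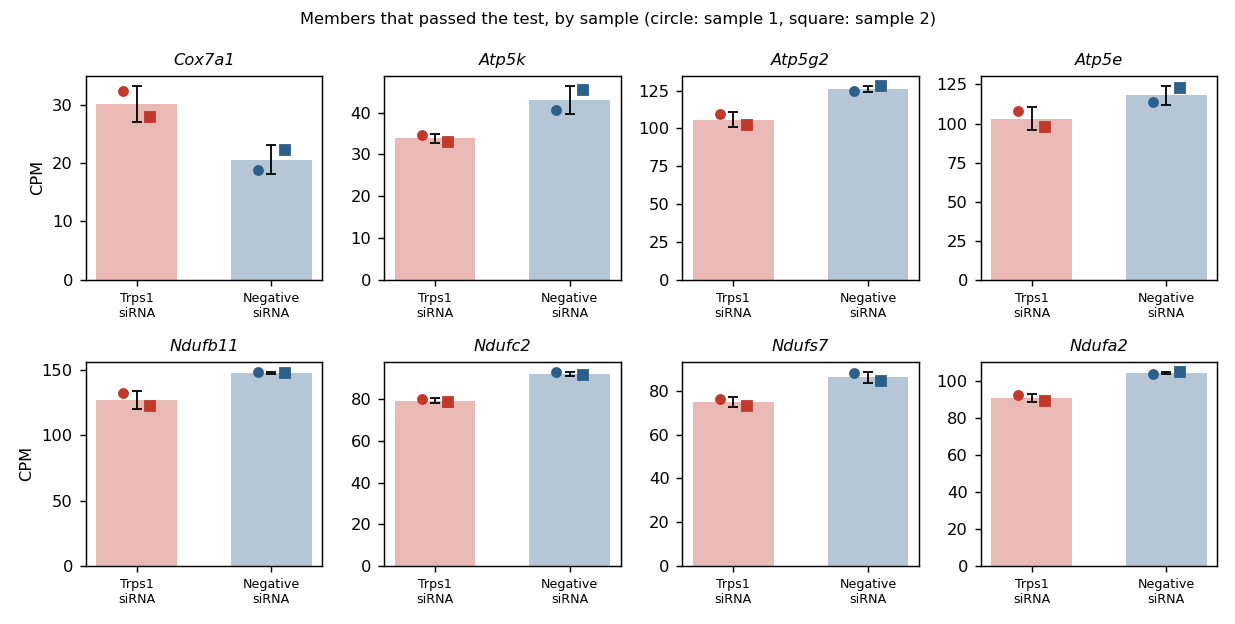
Level in CPM (vertical axis, from 0) of the 8 members that passed the test; bars are group means, error bars SD (n = 2), and points the samples, with Trps1 siRNA left of Negative siRNA. Cox7a1 lay between 27.9 and 32.4 CPM with Trps1 siRNA and between 18.8 and 22.3 CPM with Negative siRNA; the other 7 genes lay lower in both Trps1 siRNA samples.

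The c-ring of ATP synthase, the rotor that protons turn, is encoded by a trio of genes whose mature proteins are the same and whose targeting peptides differ. Atp5g2 (chr15:102662864-102672352, minus strand) fell, with 109 and 102 CPM with Trps1 siRNA, against 125 and 128 CPM with Negative siRNA (log2 fold change -0.26 ± 0.06, edgeR quasi-likelihood adjusted p = 0.00387). Atp5g1 stood at -0.12 ± 0.06 and did not pass (edgeR quasi-likelihood adjusted p = 0.19). Atp5g3, the most abundant of them, stood at 0.11 ± 0.06 and did not pass (edgeR quasi-likelihood adjusted p = 0.316).

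Set against each other per length, Atp5g2 made up 19.8% and 20.1% of the summed c-subunit TPM with Trps1 siRNA, against 24.0% and 23.8% with Negative siRNA. Atp5g3 made up 71.3% and 70.5% with Trps1 siRNA, against 65.8% and 66.5% with Negative siRNA. The shares of both genes did not overlap between groups. The sum of the trio did overlap, at 1028 and 955 TPM with Trps1 siRNA, against 978 and 983 TPM with Negative siRNA.

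Isoform pairs of complex IV were compared in the same way, as was the Ndufa4 pair, which the rule counts in complex I by name. Cox7a1 made up 40.1% and 41.3% of the summed TPM of Cox7a1 and its ubiquitous partner Cox7a2 with Trps1 siRNA, against 30.3% and 31.4% with Negative siRNA. Cox7a2 alone had 85.4 and 70.2 CPM with Trps1 siRNA, against 76.6 and 86.1 CPM with Negative siRNA, and these groups overlapped. Cox4i2, the hypoxia-inducible form of subunit 4, made up 9.16% and 9.22% of the Cox4 sum with Trps1 siRNA, against 7.70% and 8.40% with Negative siRNA, and did not pass as a gene (log2 fold change 0.17 ± 0.13, edgeR quasi-likelihood adjusted p = 0.458). Ndufa4l2, a hypoxia-inducible relative of Ndufa4, made up 23.5% and 24.4% of that pair with Trps1 siRNA, against 22.4% and 23.0% with Negative siRNA. The muscle form Cox6a2 and the testis form Cox6b2 stayed under 1% of their pairs in every sample. These shares, like those of the c-ring genes, depend on the exon length used for each gene. They are descriptions and were not tested.

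**Figure D3:**
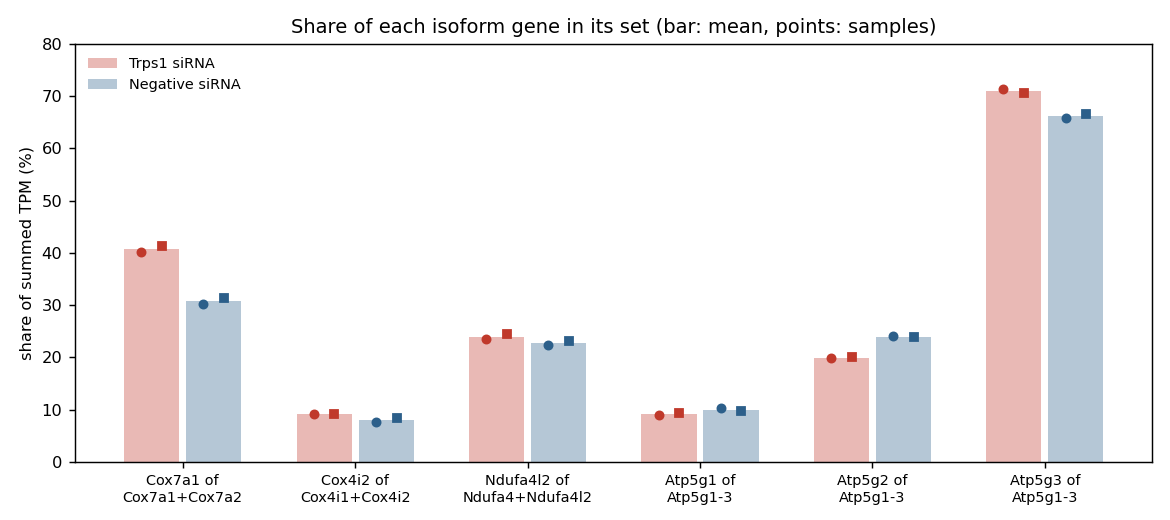
Share of each isoform gene in the summed TPM of its set (percent, vertical axis) for 6 genes; bars are group means and points the samples, with Trps1 siRNA left of Negative siRNA. Cox7a1 lies at 40.1% and 41.3% with Trps1 siRNA and at 30.3% and 31.4% with Negative siRNA, and Atp5g2 lies lower with Trps1 siRNA.

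Mitochondrially encoded members fell into high and near-absent genes along the same genome. Mitochondrial DNA is transcribed as long precursors that are cut into single mRNAs. In order of position, mt-Nd1 had 5455 and 4812 TPM with Trps1 siRNA, against 5125 and 5055 TPM with Negative siRNA. The most abundant, mt-Co1, had 10501 and 9659 TPM with Trps1 siRNA, against 9674 and 9462 TPM with Negative siRNA. Its neighbour mt-Co2, which encodes another core subunit of the same complex, had 31.5 and 16.3 TPM with Trps1 siRNA, against 17.6 and 18.6 TPM with Negative siRNA. The gap between these neighbouring genes was there in every library, whichever siRNA was used.

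The low genes were mt-Co2, mt-Atp8, mt-Atp6, mt-Co3, mt-Nd3 and mt-Nd4l, which are consecutive. All but mt-Atp8 have annotated copies with no mismatch over the aligned bases in a nuclear insertion of mitochondrial DNA on chromosome 1 (chr1:24611535-24616197, GRCm38), which holds 7 pseudogenes. Between 98.0% and 100% of the 50-base words of these 5 genes occur in another gene. The copy of mt-Co2 is Gm28661, and the first 60 bases of both, shown because reads from them could not be told apart, are as follows, with no base in capitals since none differs.
mt-Co2: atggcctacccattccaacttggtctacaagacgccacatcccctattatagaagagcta
Gm28661: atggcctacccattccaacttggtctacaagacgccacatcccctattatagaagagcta
The copy of mt-Co1 in Gm29216 covers 483 aligned bases with 1 mismatch, A1066T, counted from base 1 of mt-Co1. The stretch from base 1063 to 1122 shows it in capitals.
mt-Co1: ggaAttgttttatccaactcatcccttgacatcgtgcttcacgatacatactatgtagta
Gm29216: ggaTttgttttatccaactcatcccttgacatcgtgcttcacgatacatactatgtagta
The pseudogenes themselves had between 1 and 167 counts per library. The sources used here do not state how reads with several matches were counted, and its part in the low levels was not tested. mt-Atp8 shares no 50-base word with another annotated transcript. Between the copies of mt-Atp6 (Gm10925) and mt-Co2 (Gm28661), the neighbours of mt-Atp8, lie 233 bases without an annotated copy, and their sequence was not searched, so a nuclear copy of mt-Atp8 was not tested for. mt-Atp8 overlaps mt-Atp6 at its end and had 0 and 1 counts with Trps1 siRNA, against 0 counts in both Negative siRNA samples.

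**Figure D4:**
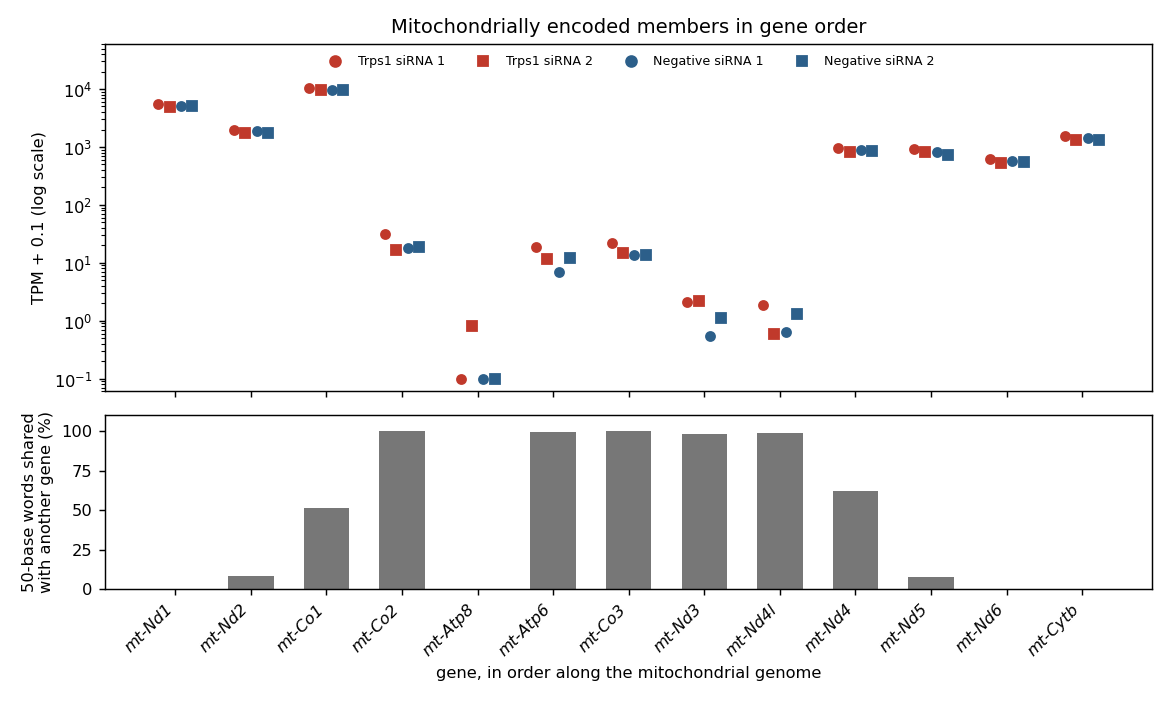
Upper panel: TPM plus 0.1 on a log scale for the 13 mitochondrially encoded members in genome order, with points for the 4 samples. Lower panel: percentage of each gene's 50-base words that occur in another gene. The run from mt-Co2 to mt-Nd4l lies far below its neighbours in all 4 samples, and all of these but mt-Atp8 share 98.0% or more of their words with annotated transcripts of other genes.

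Among the mitochondrial genes with under 10% shared words, no difference between the siRNAs passed. mt-Nd2 had 1984 and 1739 TPM with Trps1 siRNA, against 1871 and 1752 TPM with Negative siRNA. mt-Nd6, encoded on the opposite strand and overlapping mt-Nd5, had 619 and 528 TPM with Trps1 siRNA, against 575 and 559 TPM with Negative siRNA. mt-Cytb, the cytochrome b of complex III, had 1540 and 1312 TPM with Trps1 siRNA, against 1411 and 1335 TPM with Negative siRNA. In each of these genes Trps1 siRNA sample 1 was the highest of the 4 and sample 2 the lowest.

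mt-Nd5 had the highest fold change of the 5 tested genes of this kind, 0.14 ± 0.07 log2 units, with 909 and 806 TPM in Trps1 siRNA samples, against 823 and 720 TPM in Negative siRNA samples (edgeR quasi-likelihood adjusted p = 0.203). mt-Nd4, with 62.2% shared words, had 969 and 829 TPM with Trps1 siRNA, against 887 and 841 TPM with Negative siRNA. The fold changes of mt-Co2, mt-Co3 and mt-Atp6, at 0.37 ± 0.25, 0.39 ± 0.23 and 0.62 ± 0.30, rest on 30 to 124 counts per library and did not pass. Without Trps1 siRNA sample 2, mt-Co2 and mt-Nd5 passed as higher (edgeR quasi-likelihood adjusted p = 0.0426 and 0.0492), and without Negative siRNA sample 2, mt-Atp6 did (0.0357). mt-Nd3 and mt-Nd4l, with 1 to 5 counts per library, were not tested.

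Summed over genes, the Trps1 siRNA samples differed more from each other than the group means did. The 87 nuclear members summed to 11921 and 11257 CPM with Trps1 siRNA, against 11915 and 12132 CPM with Negative siRNA. The 13 mitochondrial members summed to 9208 and 8182 CPM with Trps1 siRNA, against 8404 and 8344 CPM with Negative siRNA. In both sums Trps1 siRNA sample 2 was the lowest, and the groups overlapped.

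By complex, the nuclear sums of Trps1 siRNA samples 1 and 2 were 98.1% and 92.5% of the Negative siRNA mean for complex I, and 98.9% and 93.9% for complex V. They were 100.1% and 94.5% for complex III, 99.4% and 92.7% for complex IV, and 103% and 97.9% for complex II. The 75 tested cytosolic ribosomal protein genes, the other large set of short abundant mRNAs, lay further down, with a median of -0.17. Of them 27 were called lower, 36%, beside 6.00% of all genes tested. The mitochondrial ribosomal proteins, which translate the mitochondrial members, gave 1 lower call among 77, with a median of -0.05.

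**Figure D5:**
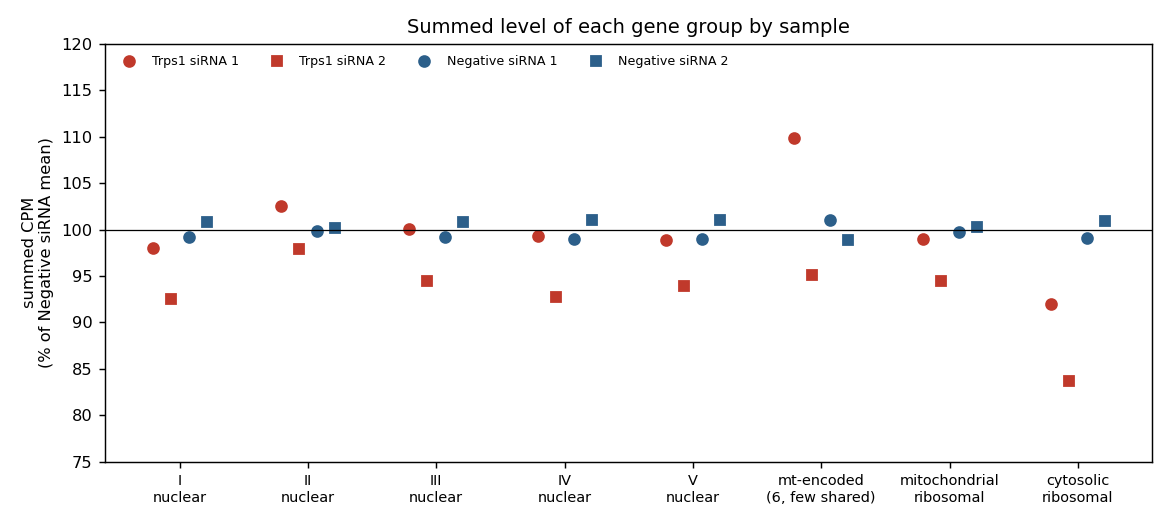
Summed CPM of each gene group by sample as percent of the Negative siRNA mean (vertical axis, from 75 to 120; line at 100) for the nuclear members of complexes I to V, the 6 mitochondrially encoded members with under 10% shared words, and ribosomal proteins. Trps1 siRNA sample 2 lies below sample 1 in all 8 groups, and cytosolic ribosomal proteins lie lowest, at 91.9% and 83.7%.

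The machinery around the complexes was described from further gene lists. Of all genes tested, 6.00% were called lower and 5.24% higher. Of 18 tested complex I assembly factors none passed, with a median of 0.01, and none of 4 for complex II or 7 for complex V did. Among complex IV assembly factors Coa5, which is needed to build the enzyme, fell to 103 and 106 CPM with Trps1 siRNA, against 150 and 142 CPM with Negative siRNA (log2 fold change -0.48, edgeR quasi-likelihood adjusted p = 1.76e-06). Sco1, a copper chaperone for subunit 2, rose to 19.2 and 21.7 CPM with Trps1 siRNA, against 15.4 and 16.4 CPM with Negative siRNA (0.37, edgeR quasi-likelihood adjusted p = 0.0364). The other 21 of the 23 did not pass. Of the 6 complex III assembly factors Ttc19 rose (0.39, edgeR quasi-likelihood adjusted p = 0.00746), and it overlaps Ncor1 on the opposite strand. None of 14 genes of coenzyme Q synthesis and cytochrome c, 18 of the citric acid cycle and pyruvate dehydrogenase, or 26 of mitochondrial genome maintenance passed.

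Electron entry by other routes and nucleotide exchange did hold calls. Of 8 other donors to coenzyme Q 3 rose and none fell, beside 5.24% of all genes tested called higher. They were Chdh, choline dehydrogenase, with 49.4 and 45.2 CPM in Trps1 siRNA samples, against 23.5 and 21.1 CPM in Negative siRNA samples, and the electron transfer flavoprotein genes Etfdh (0.39) and Etfa (0.27). Chdh overlaps Cacna1d and Etfdh overlaps 4930579G24Rik on the opposite strand. The median of the 8 was 0.01. Of 7 tested carriers, channels and related genes 3 fell, beside 6.00% of all genes tested called lower. Vdac1, an outer membrane channel, had 248 and 235 CPM with Trps1 siRNA, against 325 and 342 CPM with Negative siRNA. Vdac2, a related channel, stood at -0.27 ± 0.06 and Slc25a4, an ADP/ATP carrier, at -0.19 ± 0.06. Vdac2 overlaps Comtd1 on the opposite strand. On the steroidogenic chain, Fdxr rose by 0.67 and Cyp11a1 by 0.49 log2 units, and the other 4 of 6 tested genes did not pass.

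Among 17 tested transcriptional regulators of respiration 2 rose and none fell. The 2 were 11.8% of the list, beside 5.24% of all genes tested called higher. Ppara, a nuclear receptor for fatty acids, had 13.3 and 18.0 CPM with Trps1 siRNA, against 8.45 and 9.29 CPM with Negative siRNA. Gabpa, the DNA-binding part of an ETS factor that acts on respiratory gene promoters, had 51.7 and 57.2 CPM with Trps1 siRNA, against 47.3 and 43.2 CPM with Negative siRNA (edgeR quasi-likelihood adjusted p = 0.0249). Gabpa shares exon sequence with the member Atp5j on the opposite strand.

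Promoters were read for the nuclear members, from 250 bases before to 50 after the RefSeq start (GRCm38.p6), and 69 of 86 symbols matched. The core of the NRF1 motif, GCATGCGC, was found on either strand in 14.5% of these 69. It was found in 3.05% of all 27025 genes with a promoter, counting a match in any promoter of a gene. This background was not limited to genes tested here or matched for level. The ETS core CCGGAAG was found in 23.2% and 9.93%. The YY1 motif AANATGGCG was found in 14.5% and 2.76%, and the ERR motif AAGGTCA in 11.6% and 5.38%. A motif of the GATA family, whose type of zinc finger Trps1 carries, is spelled AGATAA and was found in 8.70% and 12.7%. The promoters of the largest lower call, of the c-ring gene that fell and of the gene that rose are shown with these motifs in capitals.
Atp5k (chr5:108434350-108434649, minus strand): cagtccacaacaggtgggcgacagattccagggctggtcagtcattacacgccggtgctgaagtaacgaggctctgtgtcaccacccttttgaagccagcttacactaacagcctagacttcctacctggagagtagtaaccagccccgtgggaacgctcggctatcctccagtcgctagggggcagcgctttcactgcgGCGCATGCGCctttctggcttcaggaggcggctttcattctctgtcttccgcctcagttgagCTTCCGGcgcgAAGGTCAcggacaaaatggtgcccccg
Atp5g2 (chr15:102670998-102671297, minus strand): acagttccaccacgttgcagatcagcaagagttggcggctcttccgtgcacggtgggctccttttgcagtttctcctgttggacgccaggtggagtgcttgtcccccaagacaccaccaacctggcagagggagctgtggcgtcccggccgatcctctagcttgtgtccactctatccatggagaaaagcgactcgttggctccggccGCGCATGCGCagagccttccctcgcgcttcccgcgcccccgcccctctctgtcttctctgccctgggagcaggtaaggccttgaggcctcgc
Cox7a1 (chr7:30183921-30184220, plus strand): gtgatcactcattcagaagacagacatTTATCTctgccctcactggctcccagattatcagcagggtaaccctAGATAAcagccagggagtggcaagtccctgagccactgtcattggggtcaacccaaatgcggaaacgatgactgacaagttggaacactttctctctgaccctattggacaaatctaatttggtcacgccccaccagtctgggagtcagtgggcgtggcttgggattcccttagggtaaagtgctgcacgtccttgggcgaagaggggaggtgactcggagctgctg
Atp5k and Atp5g2 each hold the palindromic NRF1 core, which is read on both strands with overlapping matches and includes the shorter motif CATGCGC, at 50 and 42 bases before the start. Atp5k also holds an ETS core and an ERR motif after the start. The Cox7a1 window holds 2 GATA motifs, at 223 and 177 bases before the start, and none of the NRF1, ETS, YY1 or ERR motifs. Of the 6 lower members with a promoter in the table, 2 hold the NRF1 core and 1, Ndufc2, a GATA motif. A match says that these letters occur in the window and was not tested as a binding site.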

How the data were processed

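The authors deposited one table with raw counts of the 4 samples. HISAT2 and featureCounts with the mouse build GRCm38 (mm10) are named in the submitters' processing notes. The sources used here state no tool version, strandedness or treatment of reads with several matches. The deposited counts are whole numbers for 55812 features. The authors also deposited a comparison of 780 genes, per the file headers with a mean signal per group, log2 fold changes, p-values and adjusted p-values, without naming the test used.

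Counts were fitted with edgeR 4.0.16 (R 4.3.3) by the quasi-likelihood test with robust estimation, TMM scaling and the filterByExpr minimum count of 10, and adjusted by Benjamini-Hochberg over all genes tested. The biological coefficient of variation was 0.0664, with 2 residual degrees of freedom. The same steps were tested on simulated counts. CPM used the scaled library sizes, and TPM the union exon length of the GENCODE annotation for GRCm38, which also gave coordinates and overlapping genes. Shared sequence was the share of 50-base words of a gene's transcript found in transcripts of another gene. Alternatives were DESeq2 1.42.0, limma 3.58.1 (voom), other scalings and filters, offsets for exon length and GC content, a replicate block and leaving out each sample. Figures were drawn with matplotlib 3.10.9 in Python 3.11.15, with tables from pandas 2.3.3.

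The members and the other gene lists were chosen with earlier results of these data known. Named genes were Trps1, every called member, in each complex the 2 members with the smallest p and the 2 with the highest TPM, the mitochondrially encoded members, the isoform genes with their partners, and from each other list up to 4 genes with the smallest p. Ndufs6, Ndufb2, Cyc1, Uqcrfs1, Atp5h, Atp5l, Atp5o and Atp5s were named outside this rule after their values were seen. Atp5g1 and Atp5g3 were named as the other c-ring genes beside the called Atp5g2. The mitochondrial ribosomal RNA genes mt-Rnr1 and mt-Rnr2 were not members. In the main fit their counts stayed in the library totals, and both were among the genes tested.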

Additional observations from a re-analysis of the deposited data

How the results depend on the processing

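The count of genes called was 1652, and 991 with DESeq2. Leaving out each sample in turn gave 871 to 1675, with 871 without Trps1 siRNA sample 2. Members called lower numbered 7, and 3 with DESeq2 and 0 to 11 with a sample left out. Members called higher numbered 1, and 1 to 3 with a sample left out. The nuclear median of -0.07 ranged from -0.115 to -0.025 with a sample left out and was -0.044 with offsets for exon length. The mitochondrial median of 0.06 ranged from -0.078 to 0.162, and was -0.078 without Trps1 siRNA sample 1. The lone sample of an arm was then assumed to vary like the others. The other settings kept the 4 counts and medians of the members within 1.5 times or within the spread between samples. For the mitochondrial median that spread was 0.121, wider than the median itself, so this limit was loose. The mitochondrial median was 0.136 with no low-count filter and 0.010 with offsets for GC content. With Ndufa4 counted in complex IV, the calls by complex were unchanged. Ndufs6 was called lower with no low-count filter, with a mean of at least 5 CPM, with offsets for GC content and without Trps1 siRNA sample 1.

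The labels do not say whether the sample numbers pair the samples. The correlation of same-numbered deviations was 0.0167, which with so few samples per group cannot show whether they were paired. With the number as a replicate block, 2285 genes, 8 members lower (Ndufs6 in addition) and 1 higher were called, and the medians were -0.069 for nuclear and 0.054 for mitochondrial members. Low counts limit what can be said of mt-Co2, mt-Atp6, mt-Co3, Cox6a2 and Cox6b2.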

Other observations

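The small mitochondrial ribosomal RNA gene mt-Rnr1, which is not a member, had 18617 and 22713 counts with Trps1 siRNA, against 381 and 26080 counts with Negative siRNA, so that Negative siRNA sample 1 stood far below the other 3. The large ribosomal RNA gene mt-Rnr2 had 16947 and 18292 counts with Trps1 siRNA, against 14400 and 21565 counts with Negative siRNA, with no such gap. The mitochondrially encoded members of Negative siRNA sample 1 summed to 8404 CPM, within the range of the other samples.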
